A study of Arabidopsis thaliana with 3 samples.

Results

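The 10 Arabidopsis thaliana genes described here encode the enzymes that take chlorophyll apart. They are a list of loci named for their roles in the pathway, with no measured value in the rule, though earlier results of these data were known when it was drawn up. They are 10 of the 33602 genes in the count tables. RNA came from first-pair rosette leaves of the accession Col-0 in 3 libraries, 1 per group: leaf explants 2 days after wounding (the explant), a control at 2 days, and a control at the start (T0). The explants, detached leaf tissue of seedlings aged 12 days, were kept on B5 medium with no carbohydrate under 16 h light and 8 h dark. All libraries carry that age in their labels, and the same light cycle is listed for each. The series text names the wound site and the remaining leaf. Not stated are which of these a library holds, how the 2-day control was kept apart from its light cycle, and how many plants were pooled.

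Chlorophyll is bound to proteins of the chloroplast membranes and has to be broken down in order, because free chlorophyll and its coloured intermediates react with light and damage the cell. Chlorophyll b is first turned into chlorophyll a, the central magnesium and the phytol tail are removed, and the ring is then opened, after which colourless products are exported to the vacuole. In leaves this route is best known from senescence, when the green colour is lost and nitrogen is recovered from the proteins that held the pigment.

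The counts per gene summed to 46713257 for the explant, 45097732 for the 2-day control and 43099934 for T0. Levels are given in CPM, counts per 1000000 counts of a library whose size was adjusted by TMM. Each ratio between libraries comes with its exact 95% counting interval in brackets, and a gene was called only if that whole interval lay past 2-fold. With 1 library per group there was no replicate check and no p-value: a call compares these libraries, not the conditions. The intervals come from the counts of single libraries and cover counting error only. No molecular identifiers are named that would count single molecules, so a molecule may be counted more than once and the intervals may be too narrow. All 10 genes had at least 30 counts over the 3 libraries, as had 20109 genes in all. The leaf marker RBCS1A, a small subunit of RuBisCO, stood at 1712, 2001 and 2395 CPM in the order explant, 2-day control, T0, and the root hair genes COBL9 and RHD6 had 0 to 2 counts. The 4 leaf markers summed to 4036, 6461 and 8350 CPM, but they did not share 1 pattern. GLDP1 was highest in the 2-day control, at 1155, 2274 and 1884 CPM, and was not called in any comparison. Of the 4 root markers, PIN2 had 1, 3 and 13 counts, and PYK10, a beta-glucosidase, stood at 55.5, 63.8 and 24.6 CPM, called higher than T0 in the explant (2.26-fold) and in the 2-day control (2.60-fold). LHCB2.1, an antenna protein that binds chlorophyll a and b, stood at 24.2, 26.7 and 1726 CPM, 71.4 times lower in the explant than T0 and 64.6 times lower in the 2-day control than T0. CA1, a carbonic anhydrase, was 2.05 times lower in the explant than T0 (2.03 to 2.07), a call lost with total counts (ratio 0.597). In RNA from whole tissue, fewer cells of a type and less RNA per cell cannot be told apart.

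Between the explant and the 2-day control, 9 of the 10 genes stayed within the 2-fold rule and 1 passed it. SGR2 was 7.22-fold higher in the explant (4.74 to 11.4), and PAO, at 2.04-fold (1.97 to 2.12), ended at the 2-fold limit without passing it. Of the 10 genes, 1 was called higher and 0 lower, where 10.04% of all 20109 genes were called higher and 6.74% lower. The median log2 ratio of the 10 genes was 0.34, beside 0.00 for all genes, with 7 of 10 above 0 and a range of -0.39 (HCAR) to 2.83 (SGR2). The count of 1 in 10 genes lies at the background share and is no result about the pathway as a whole.

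**Figure D1:**
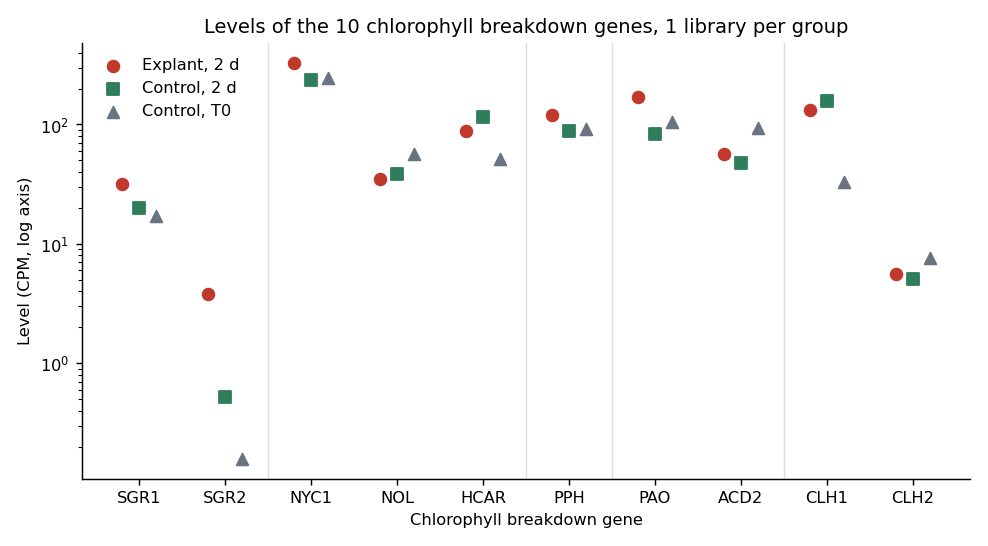
Level of each chlorophyll breakdown gene in CPM on a log axis, in the explant (circles), the 2-day control (squares) and the T0 control (triangles), 1 library each, with lines between the steps of the pathway. SGR2 stands at 3.78 CPM in the explant and 0.158 CPM at T0, whereas CLH1 stands high in both 2-day libraries.

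Removal of the magnesium ion is the step that commits chlorophyll a to breakdown, and SGR1 (AT4G22920, NYE1 in the reference names) and SGR2 (AT4G11910, NYE2) encode the dechelatases that carry it out. SGR1, the main gene of the pair in senescing leaves, stood at 31.7 CPM for the explant, 20.0 CPM for the 2-day control and 17.2 CPM for T0. The explant was the highest of the 3 libraries, with an SGR1 ratio of 1.59 to the 2-day control (1.46 to 1.72) and of 1.85 to T0 (1.69 to 2.03). Neither ratio was called with TMM; with scaling by total counts the ratio to T0 was 2.26 (2.06 to 2.48) and passed. The SGR1 ratio of the 2-day control to T0 was 1.16 (1.05 to 1.29). Over all genes, 19.8% had a larger log2 ratio than SGR1 in the explant over the 2-day control and 24.5% in the explant over T0.

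SGR2 had 190 counts for the explant, 25 for the 2-day control and 6 for T0, or 3.78, 0.524 and 0.158 CPM. The explant was highest and T0 lowest, with only 6 counts at T0. SGR2 was called higher in the explant over T0, 23.9-fold (10.8 to 66.0), as it was over the 2-day control, where 4.47% of all genes had a larger log2 ratio. The SGR2 ratio of the 2-day control to T0 was 3.31 (1.33 to 9.87) and was not called. SGR2 made up 10.7% of the counts of both dechelatase genes for the explant (9.27 to 12.2, exact Clopper-Pearson), 2.56% for the 2-day control (1.66 to 3.75) and 0.915% for T0 (0.336 to 1.98). Such a share within a library does not depend on how libraries are scaled. Per kilobase of exon, SGR2 still reached only 0.161 times SGR1 in the explant. The best match of SGR2 to another gene was SGR1, at 77.9% identity over 755 bases, below the 95% limit set for near-identical copies. AT4G11911, the next locus on the same strand and also annotated as a STAY-GREEN-like protein, had 4 counts for the explant, 1 for the 2-day control and 0 for T0; it was looked up after the values of SGR2 were seen. A more distant relative, AT1G44000 (annotated STAY-GREEN-like), stood at 59.4, 69.4 and 100.4 CPM in the same order of libraries and was not called in any comparison.

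**Figure D2:**
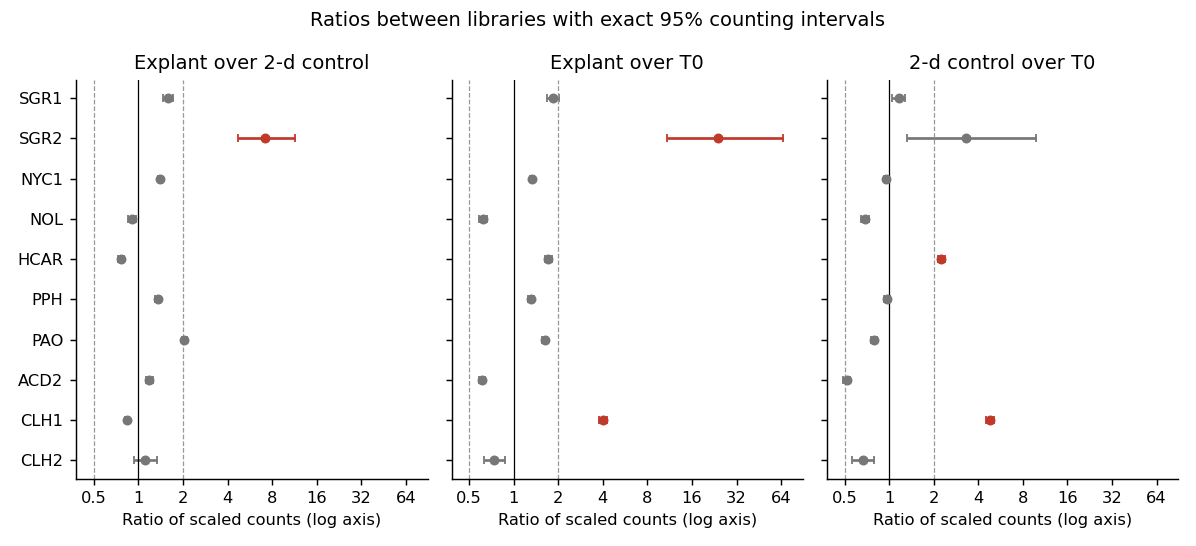
Ratio of scaled counts for each gene in the 3 comparisons on a log axis, with exact 95% counting intervals; dashed lines mark 2-fold and red marks a call. SGR2 is called in both comparisons of the explant, CLH1 in both comparisons with T0, and HCAR for the 2-day control over T0.

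Chlorophyll b has to become chlorophyll a before its magnesium can be taken out. NYC1 (AT4G13250) and NOL (AT5G04900) encode the chlorophyll b reductases of the first reaction, and HCAR (AT1G04620) the reductase of the second, which acts on 7-hydroxymethyl chlorophyll a. NYC1 was the gene of the pathway with the highest level per kilobase of exon in every library, though in the 2-day control its interval overlapped that of CLH1. Not divided by length, NYC1 stood at 326 CPM for the explant, 234 CPM for the 2-day control and 247 CPM for T0. Its ratio was 1.40 in the explant over the 2-day control (1.36 to 1.43) and 1.32 over T0 (1.29 to 1.36), neither called. Between the 2-day control and T0 the NYC1 ratio was 0.946 (0.920 to 0.972), which scaling by total counts turned to 1.14.

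NOL had 34.6 CPM for the explant, 38.3 CPM for the 2-day control and 56.2 CPM for T0. The NOL ratio was 0.617 in the explant over T0 (0.578 to 0.657) and 0.683 in the 2-day control over T0 (0.641 to 0.727), and neither was called. The explant was thus the highest of the 3 libraries for NYC1 and the lowest for NOL, although the NOL ratio to the 2-day control was only 0.903 (0.845 to 0.965). NOL made up 9.60% of the counts of both reductase genes for the explant (9.17 to 10.03), 14.1% for the 2-day control (13.5 to 14.7) and 18.5% for T0 (17.8 to 19.3), and the 3 intervals did not overlap.

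HCAR was highest in the 2-day control, at 87.9 CPM for the explant, 115.4 CPM for the 2-day control and 51.3 CPM for T0. It was called higher in the 2-day control over T0, 2.25-fold (2.13 to 2.37), where 11.7% of all genes had a larger log2 ratio. In the explant the HCAR ratio was 1.71 over T0 (1.62 to 1.81) and 0.762 over the 2-day control (0.732 to 0.793), neither called. Relative to NYC1 in the same library, HCAR had 0.270 counts per NYC1 count for the explant, 0.494 for the 2-day control and 0.208 for T0.

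The phytol tail of magnesium-free chlorophyll is cut off by pheophytinase, the product of PPH (AT5G13800). PPH stood at 120.4 CPM for the explant, 89.0 CPM for the 2-day control and 92.0 CPM for T0, so both controls lay together and the explant above them. Its ratio was 1.35 in the explant over the 2-day control (1.30 to 1.41) and 1.31 over T0 (1.25 to 1.37), short of the 2-fold rule. The PPH ratio of the 2-day control to T0 was 0.968 (0.925 to 1.01) and could not be told from 1 at this depth; with total counts it was 1.16.

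Pheophorbide a oxygenase, encoded by PAO (AT3G44880, ACD1 in the reference names), opens the ring and ends the green colour. ACD2 (AT4G37000) encodes the red chlorophyll catabolite reductase that acts on its product, and plants that lack either gene build up intermediates that kill cells in light. PAO stood at 168.7 CPM for the explant, 82.5 CPM for the 2-day control and 104.2 CPM for T0. In the explant over T0 the PAO ratio was 1.62 (1.56 to 1.68), and in the 2-day control over T0 it was 0.792 (0.757 to 0.828). The PAO ratio to the 2-day control, just inside the limit with TMM, passed with total counts at 2.08 (2.00 to 2.16).

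ACD2 went the other way against T0, with 56.6 CPM for the explant, 47.8 CPM for the 2-day control and 92.8 CPM for T0. Both 2-day libraries lay below T0, with ACD2 ratios of 0.609 for the explant (0.580 to 0.640) and 0.515 for the 2-day control (0.489 to 0.543), neither called. The ACD2 ratio of the explant to the 2-day control was 1.18 (1.12 to 1.25). PAO had 2.98 counts per ACD2 count for the explant (2.86 to 3.11), 1.72 for the 2-day control (1.64 to 1.82) and 1.12 for T0 (1.07 to 1.18). Per kilobase of exon these were ratios of 2.23, 1.29 and 0.839, so PAO lay above ACD2 in both 2-day libraries and below it at T0. Of the ACD2 exon bases, 11.1% also lie in CEN2 (AT4G37010), a centrin gene on the same strand with 291 counts for the explant, 1 for the 2-day control and 0 for T0. How reads in the shared bases were assigned is not known, and their effect on the ACD2 counts was not tested.

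**Figure D3:**
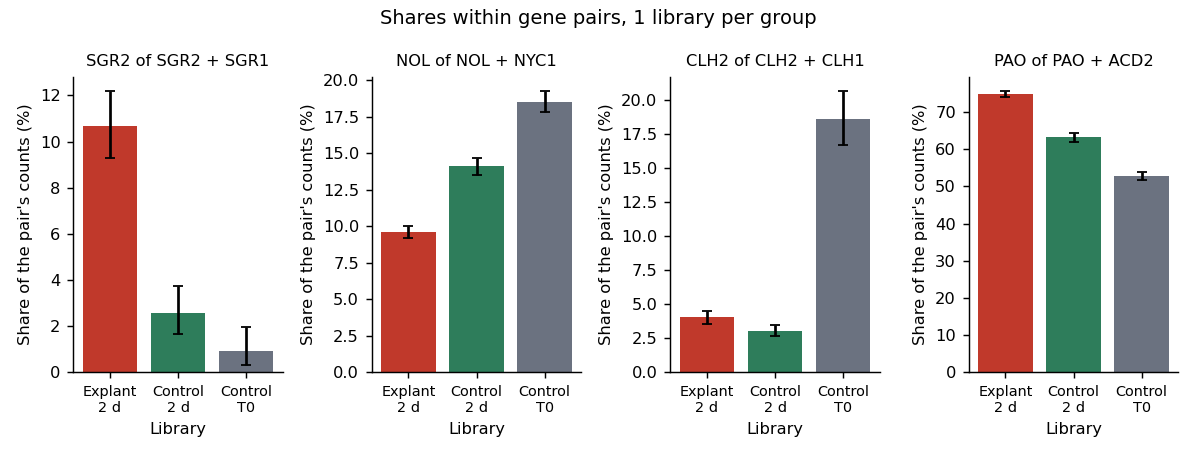
Share of 1 gene in the counts of a pair of genes (percent), for each of the 3 libraries, with exact 95% binomial intervals for counting error and 1 library per bar. SGR2 and PAO take their largest shares in the explant, at 10.7% and 74.9%, and NOL its smallest, at 9.60%.

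Chlorophyllase, the product of CLH1 (AT1G19670) and CLH2 (AT5G43860), also removes phytol but works on intact chlorophyll, and is not required for the loss of green colour in senescing leaves. CLH1 is also known as a gene induced by coronatine, a bacterial toxin that mimics jasmonate. CLH1 stood at 133 CPM for the explant, 159 CPM for the 2-day control and 33.1 CPM for T0. Both 2-day libraries were called higher than T0, the explant 4.02-fold (3.79 to 4.28) and the 2-day control 4.79-fold (4.51 to 5.09), and 3.51% of all genes had a larger log2 ratio in the second comparison. Both comparisons share the T0 library, as both comparisons of SGR2 share the explant. The CLH1 ratio of the explant to the 2-day control was 0.840 (0.812 to 0.868), which was not called.

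CLH2 was low throughout, at 5.60 CPM for the explant, 5.03 CPM for the 2-day control and 7.57 CPM for T0, and no CLH2 ratio was called. The CLH2 ratios were 1.11 in the explant over the 2-day control (0.933 to 1.33), 0.739 in the explant over T0 (0.625 to 0.874) and 0.665 in the 2-day control over T0 (0.558 to 0.791). CLH2 held 4.03% of the counts of both chlorophyllase genes for the explant (3.58 to 4.52), 3.07% for the 2-day control (2.70 to 3.48) and 18.6% for T0 (16.7 to 20.6). Its counts are uncertain, because 71.45% of its exon bases also lie in AT5G43870 on the other strand and no strand setting is given; that gene had 1423, 2435 and 1645 counts. Between the phytol-removing enzymes, PPH had 0.903 counts per CLH1 count for the explant (0.872 to 0.936), 0.561 for the 2-day control (0.540 to 0.582) and 2.78 for T0 (2.60 to 2.96). Per kilobase of exon, CLH1 was therefore above PPH in both 2-day libraries and below it at T0, where the ratio of PPH to CLH1 was 1.76.

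Against T0, 2 of the 10 genes were called higher in the explant (SGR2 and CLH1) and 2 in the 2-day control (HCAR and CLH1), and 0 were called lower in either. Over all genes, 17.8% were called higher and 13.3% lower in the explant over T0, and 8.69% and 8.43% in the 2-day control over T0. The median log2 ratio of the 10 genes was 0.55 in the explant over T0, beside 0.03 for all genes, with a range of -0.71 (ACD2) to 4.47 (SGR2). It was -0.06 in the 2-day control over T0, beside 0.04 for all genes, with a range of -0.96 (ACD2) to 2.26 (CLH1). With total counts the medians of all genes moved to 0.31 in both comparisons, and those of the 10 genes became 0.84 in the explant over T0 and 0.20 in the 2-day control over T0. The share of calls on the higher side went with it, 70.1% with total counts and 57.1% with TMM in the explant over T0, and 67.7% and 50.8% in the 2-day control over T0.

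Summed by step, dechelatase RNA was highest in the explant, with 35.5 CPM for SGR1 and SGR2 there, 20.5 CPM for the 2-day control and 17.3 CPM for T0. The sum for the reduction of chlorophyll b (NYC1, NOL and HCAR) followed the same order, with 449, 387 and 355 CPM, but none of its genes did. NYC1 was lowest in the 2-day control, NOL was lowest in the explant and HCAR was highest in the 2-day control. The ring-opening step (PAO and ACD2) was highest in the explant too, at 225 CPM, but lowest in the 2-day control, at 130.3 CPM beside 197 CPM at T0. The chlorophyllases departed from this, with 139 CPM for the explant, 164 CPM for the 2-day control and 40.7 CPM for T0. All 10 genes together summed to 969, 791 and 702 CPM, a ratio of 1.22 in the explant over the 2-day control, 1.38 in the explant over T0 and 1.13 in the 2-day control over T0. NYC1 alone gave the largest part of that sum in every library, so the sums say little of the low genes SGR2 and CLH2.

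Levels of different genes were set side by side per kilobase of exon in the RefSeq models of TAIR10.1. In the explant NYC1 led with 158 CPM per kilobase, followed by CLH1 with 91.7, PAO with 83.6, PPH with 52.6, HCAR with 39.6 and ACD2 with 37.5. Of these neighbours, HCAR and ACD2 had overlapping counting intervals. In the 2-day control NYC1 (113 CPM per kilobase) and CLH1 (109) lay at the top with overlapping intervals, ahead of HCAR, PAO, PPH and ACD2, and those of PAO and PPH overlapped too. At T0 NYC1 (119.5 CPM per kilobase) was followed by ACD2 (61.6), PAO (51.7), PPH (40.2), NOL (40.1), HCAR (23.1) and CLH1 (22.8), with overlap between PPH and NOL and between HCAR and CLH1. CLH1 was thus second in both 2-day libraries and seventh at T0, and ACD2 sixth in both 2-day libraries and second at T0. SGR1, CLH2 and SGR2 held the last places in this order in every library.

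The genes around the breakdown route were counted from lists of known function, with the median log2 ratio of each list beside that of all genes above. The background for the list counts is the share of all genes called. It was 10.04% higher and 6.74% lower in the explant over the 2-day control, and 17.8% and 13.3% in the explant over T0. In the 2-day control over T0 it was 8.69% and 8.43%. Of 24 synthesis genes, 0 were called between the explant and the 2-day control (median 0.14). In the explant over T0, 9 were called lower and 0 higher (median -0.71), and in the 2-day control over T0, 8 lower and 0 higher (median -0.78). With total counts these medians were -0.42 and -0.52, beside 0.31 for all genes in both comparisons. Under that scaling 1 synthesis gene was called higher in the explant over T0. Summed over the 24 genes, the level was 5539 CPM for the explant, 5152 CPM for the 2-day control and 13761 CPM for T0.

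CAO (AT1G44446), the oxygenase that makes chlorophyll b, stood at 31.3 CPM for the explant, 27.9 CPM for the 2-day control and 316 CPM for T0. It was 10.1 times lower in the explant relative to T0 (9.58 to 10.7) and 11.3 times lower in the 2-day control relative to T0 (10.7 to 12.0). PORA (AT5G54190), a light-dependent protochlorophyllide reductase, had 5, 7 and 622 counts and was 165 times lower in the explant relative to T0 (70.2 to 509) and 112 times in the 2-day control (54.0 to 279). CAO and the reductases NYC1 and NOL run the exchange between chlorophyll a and b in opposite directions; CAO was called lower in both 2-day libraries, and neither reductase was called.

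**Figure D4:**
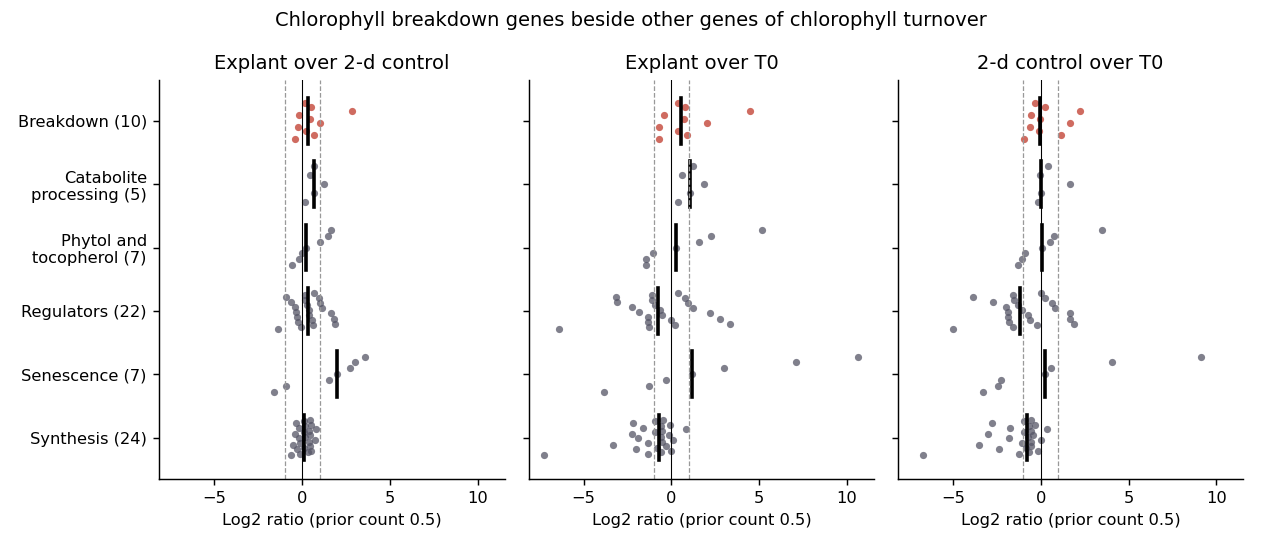
Log2 ratio of each gene (points) in the 3 comparisons for the breakdown genes (red) and 5 further lists, with a bar at each list's median and dashed lines at 2-fold. Genes with 0 counts in a library are drawn with the prior count of 0.5. The 24 synthesis genes lie mostly below 0 against T0, with medians of -0.71 for the explant and -0.78 for the 2-day control, and the 10 breakdown genes around 0.55 and -0.06.

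Beyond ring opening, 5 genes that modify or export the products were measured. Of these, 1 was called higher in the explant over the 2-day control (median log2 ratio 0.67), 3 in the explant over T0 (median 1.06) and 1 in the 2-day control over T0 (median 0.00), and 0 were called lower. ABCC3 (AT3G13080), a transporter of the vacuole membrane that can carry chlorophyll catabolites, stood at 165.9 CPM for the explant, 71.0 CPM for the 2-day control and 71.3 CPM for T0. Its level was 2.34-fold higher in the explant relative to the 2-day control (2.24 to 2.43) and 2.33-fold relative to T0 (2.23 to 2.43). ABCC2 (AT2G34660), a transporter of the same family, stood at 199.9, 180.6 and 56.1 CPM and was called higher than T0 in both 2-day libraries, 3.56-fold in the explant (3.40 to 3.74) and 3.22-fold in the 2-day control (3.07 to 3.38). TIC55 (AT2G24820), which hydroxylates the first colourless product and belongs to the same oxygenase family as PAO, was 2.09-fold higher in the explant relative to T0 (2.01 to 2.17), not so with DESeq2 size factors. Of its exon bases 30.85% also lie in other gene models, so its counts are uncertain. PTC52 (AT4G25650), a further relative of PAO, stood at 124, 159 and 253 CPM and was not called in any comparison.

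The phytol set free by PPH can be stored as fatty acid esters or built into tocopherol. Of 7 genes of these routes, 2 were called higher and 0 lower in the explant over the 2-day control, 3 higher and 2 lower in the explant over T0, and 1 higher and 1 lower in the 2-day control over T0. The medians were 0.21, 0.26 and 0.05. PES2 (AT3G26840), a phytyl ester synthase, had 2495 counts for the explant, 742 for the 2-day control and 52 for T0. This made it 3.19-fold higher in the explant relative to the 2-day control (2.94 to 3.47), 36.2-fold higher in the explant relative to T0 (27.5 to 48.6), and 11.3-fold in the 2-day control relative to T0 (8.55 to 15.3). Its partner PES1 (AT1G54570) stood at 60.1, 29.2 and 19.9 CPM and was 3.02-fold higher in the explant relative to T0 (2.79 to 3.27). VTE2 (AT2G18950, HPT1 in the reference names), which joins phytyl diphosphate to the tocopherol head group, was 2.81-fold higher in the explant relative to the 2-day control (2.63 to 3.01) and 4.76-fold higher than in the T0 control (4.35 to 5.22). VTE5 (AT5G04490), a phytol kinase, and VTE1 (AT4G32770), the tocopherol cyclase, were 2.76 times lower (2.61 to 2.91) and 2.73 times lower (2.55 to 2.93) in the explant relative to T0. VTE1 was also called lower in the 2-day control relative to T0, by 2.41 times (2.25 to 2.58), but not with total counts.

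Transcription factors linked to the breakdown genes formed a list of 22. The list was not sorted into activators and repressors, so its counts and medians give no direction for breakdown. In the explant over the 2-day control 4 were called higher and 1 lower (median log2 ratio 0.32). The 4 were NAC factors linked to leaf senescence or stress: NAC019 (AT1G52890) at 3.58-fold (3.24 to 3.97), NAC029 (AT1G69490, NAP) at 3.65-fold (3.17 to 4.21), NAC016 (AT1G34180) at 3.17-fold (2.19 to 4.69) and NAC092 (AT5G39610, NAC6 in the reference names) at 2.23-fold (2.06 to 2.41). NAC092, also called ORE1 and a known activator of breakdown genes, stood at 43.5 CPM for the explant, 19.5 CPM for the 2-day control and 6.25 CPM for T0. NAC029 stood at 18.9, 5.18 and 19.2 CPM, so that the explant lay beside T0 and the 2-day control below both. The other NAC factors of the list were not called: NAC046 (AT3G04060, ratio 2.07), NAC072 (AT4G27410, 1.34) and NAC055 (AT3G15500, 0.768). The gene called lower was PIF4 (AT2G43010), a light-regulated factor, which was 2.61 times lower (2.22 to 3.08). With the stricter of the intervals tried, NAC016, NAC092 and PIF4 were not called, which left 2 higher and 0 lower.

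Against T0 the same list had 4 higher and 8 lower in the explant (median log2 ratio -0.77), and 2 higher and 10 lower in the 2-day control (median -1.20). The lower calls include MYC2 in both comparisons, whose counts are uncertain because 98.54% of its exon bases also lie in AT1G32630 on the other strand. With total counts only 4 of the 22 were called lower in the explant over T0. PIF4 stood at 4.12 CPM for the explant, 10.8 CPM for the 2-day control and 344 CPM for T0, and its relative PIF5 (AT3G59060) at 28.4, 17.5 and 258 CPM. PIF4 was 83.5 times lower in the explant (72.8 to 96.2) and 32.0 times lower in the 2-day control (29.3 to 35.0) relative to T0, and PIF5 9.09 times (8.60 to 9.62) and 14.7 times (13.7 to 15.8). NAC092 was 6.95-fold higher in the explant relative to T0 (6.08 to 7.98), and 3.12-fold in the 2-day control relative to T0 (2.70 to 3.61). The NAC factors did not move together. NAC055 was 8.42 times lower in the explant relative to T0 (7.19 to 9.90) and NAC072 2.18 times lower (2.05 to 2.32). In the 2-day control relative to T0, NAC055, NAC072, NAC029 and NAC046 were called lower. NAC016 was 10.7-fold higher in the explant relative to T0 (5.44 to 23.8), and MYC4 (AT4G17880), a jasmonate factor, 3.73-fold higher in the 2-day control relative to T0 (3.26 to 4.27).

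Among 7 senescence markers, 4 were called higher and 1 lower in the explant over the 2-day control (median log2 ratio 2.01). That median is the value of SAG29, which rests on 27 and 6 counts and was not called. SAG20 (AT3G10985) went the other way, at 77.3, 143 and 97.2 CPM, with a ratio of 0.540 (0.519 to 0.561), not called. Summed over the 7 markers, the level was 290 CPM for the explant, 318 CPM for the 2-day control and 843 CPM for T0, so the list did not move together. SAG12 (AT5G45890), a protease gene of late senescence, had 90 counts for the explant, 10 for the 2-day control and 0 for T0, and SAG13 (AT2G29350) had 1061, 344 and 0. SAG12 was 8.55-fold higher in the explant relative to the 2-day control (4.44 to 18.4). SAG13 was 2.93-fold higher in the explant relative to the 2-day control (2.59 to 3.32). Against T0, with a floor of 3 counts in that library, SAG13 was at least 267-fold higher in the explant and at least 91.1-fold higher in the 2-day control, and with the counting error of both libraries the lower limits were 217 and 73.7. SAG12 was at least 22.6-fold higher in the explant on the same floor, with a lower counting limit of 18.0. SEN1 (AT4G35770), a gene of dark-induced senescence, stood at 49.2, 149 and 712 CPM and was called lower in all 3 comparisons, by 3.03 times in the explant over the 2-day control. The factor gene WRKY53 (AT4G23810) stood at 48.6, 4.03 and 21.8 CPM, with 20.5% of its exon bases in another gene model, and WRKY6 (AT1G62300) at 91.1, 13.8 and 11.5 CPM. Set against the 2-day control, the explant had 12.1-fold (10.4 to 14.1) more WRKY53 RNA and 6.61-fold more WRKY6 RNA (6.09 to 7.19), and set against T0, 2.23-fold (2.06 to 2.42) and 7.93-fold more (7.19 to 8.77). In the 2-day control WRKY53 was 5.41 times lower than in the T0 control (4.62 to 6.37) and SAG29 (AT5G13170), a sugar transporter gene, 10.5 times lower (4.49 to 29.9). Against T0 the list had 4 higher and 1 lower in the explant (median 1.16), and 1 higher and 3 lower in the 2-day control (median 0.26); the medians were the same with genes at 0 counts set to the floor. The part of leaf age or senescence in the SGR2 values was not tested.

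Genes with a pattern like that of SGR1 or CLH1 were sought among 7997 genes with a symbol and at least 150 counts, by the distance between their log2 ratios to T0 in both 2-day libraries. Nearest to SGR1 were PAP1 (AT3G16500, also IAA26), CYCD2;1 (AT2G22490), a cyclin gene, and PIP5K1 (AT1G21980), a lipid kinase gene, at distances of 0.0213, 0.0349 and 0.0350. Nearest to CLH1 were AMT2 (AT2G38290), an ammonium transporter gene, LEJ2 (AT4G36910) and SUMO5 (AT2G32765), at 0.0488, 0.0626 and 0.0992. Within a distance of 0.2 lay 160 genes for SGR1 and 14 for CLH1. The measure rests on 3 libraries, so many genes can lie close without more in common than these ratios.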

How the data were processed

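The deposited values were raw read counts for each gene in 3 libraries, not normalized by the authors. HTSeq, FastQC, DESeq and the build TAIR10 are named in the submitters' processing notes, without their roles. Aligner, annotation release and strand setting: not given in the sources used here. Summary lines were left out: ambiguous reads were 2.12%, 2.18% and 2.17% of all listed, and reads outside genes 0.700%, 0.763% and 0.677% (explant, 2-day control, T0).

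Genes with at least 30 counts over the libraries were kept and scaled by TMM in edgeR 4.0.16 (R 4.3.3; factors 1.07, 1.06 and 0.879). Intervals are exact Clopper-Pearson intervals of the binomial split of a gene's counts between 2 libraries, at 95%. No model was fitted, since a single library per group has no spread to estimate. For log2 ratios 0.5 was added as a prior count, and the floor of 3 counts was set per library. The script was tested on simulated counts. Alternatives were DESeq2 1.42.0 size factors, total counts, TMM outside the 100 most abundant genes, filters of 1 and 150 counts, call limits at 1.5-fold or 4-fold, an interval of 99.9% and thinning to the smallest library.

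Symbols, exon lengths, overlaps and copies (blastn 2.17.0, 95% identity over 100 bases) came from RefSeq TAIR10.1, another build than the submitters', so no coordinates are given; 32835 of 33602 loci matched. Tables and plots were made with scipy 1.17.1, pandas 2.3.3, matplotlib 3.10.9 and numpy 2.4.6 in Python 3.11.15. The members and lists were chosen with earlier results of these data known. From each list and comparison every called gene is named where 5 or fewer were called. Otherwise the 2 per direction are named whose nearer bound lay farthest from 1. MYC2, further NAC factors called lower than T0, and values of uncalled list genes and of overlapping models were added after being seen.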

Additional observations from a re-analysis of the deposited data

How the results depend on the processing

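Of 270 recomputed ratios of the 10 genes, 257 kept their direction and their side of the limit. The filters of 1 and 150 counts could not change the ratio or call of a gene that passed them. All 10 genes had at least 150 counts, so their ratios under these filters were fixed in advance. With total counts, PAO in the explant over the 2-day control (2.08) and SGR1 in the explant over T0 (2.26) passed, which made 2 genes called higher in the first comparison, and the ratios of the 2-day control to T0 turned above 1 for NYC1 (1.14) and PPH (1.16). Total counts differ from the main scaling by leaving out the TMM factors, of which that of T0 was 0.879. At 1.5-fold, further calls were PAO (2.04) in the explant over the 2-day control, for 2 genes higher; SGR1 (1.85), HCAR (1.71), PAO (1.62), NOL (0.617) and ACD2 (0.609) in the explant over T0, for 5 higher and 2 lower; and ACD2 (0.515) in the 2-day control over T0, for 1 lower. At 4-fold, CLH1 in the explant over T0 (4.02) and HCAR in the 2-day control over T0 (2.25) were lost, leaving 1 gene higher in each. Of all 20109 genes, 3367 were called higher and 2692 lower at 1.5-fold in the explant over the 2-day control, and 974 and 369 at 4-fold. In the explant over T0 the calls of all genes were 5190 higher and 4307 lower at 1.5-fold, and 1582 and 980 at 4-fold. In the 2-day control over T0 they were 3180 and 2865 at 1.5-fold, and 458 and 563 at 4-fold. Of 447 recomputed ratios of called list genes, 414 stayed past the limit in the same direction and 33 did not pass. Of 486 recomputed list counts, 437 were within 1.5 times the main count. Counts of 0 that stayed at 0 are among these, so the share says little of how stable the lists are. With the stricter interval, TIC55, WRKY53 and PYK10 in the explant over T0 were among those lost. SGR2 kept both of its calls under all 9 alternatives, but the filters of 1 and 150 counts and the 1.5-fold limit could not have removed them. No paired analysis was possible because each group holds 1 library, and no library could be left out for the same reason. Depth limits SGR2 at T0, with 6 counts; the floor of 3 counts is worth 0.0597 CPM for the explant, 0.0629 CPM for the 2-day control and 0.0791 CPM for T0.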
